A study of Mus musculus with 16 samples.

Results

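The 4 testis arrays of Emi2 knockout mice at P30 and P60 (postnatal days 30 and 60), called the late knockout here, were set against the 2 arrays of wild-type testis at P21. The arrays were taken by their labelled age and genotype, and P21 was taken as comparator because earlier results of these data had it as the nearest wild-type profile. They make up 6 of the 16 arrays of the series. All 6 are total RNA of whole testis from C57BL/6 mice, hybridised as biotin-labelled cRNA to bead arrays from Illumina, where the brightness of the beads that carry a probe measures the RNA it binds. P30 Emi2 knockout, P60 Emi2 knockout and P21 wild type have 2 arrays each, and so do the P15, P30 and P60 wild-type and the P15 and P21 knockout groups that are used below as landmarks. The growth protocol writes p12 for the youngest age, whereas titles and age labels give P15, which is used here. The labels do not say how the knockout allele was made, in which cells it acts, or whether replicate arrays stem from different animals. The p-values therefore rest only on how far replicate arrays differ, and that spread may be technical.

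Emi2 blocks the anaphase-promoting complex, a ubiquitin ligase whose activity takes a cell out of mitosis or a meiotic division. It is best known for holding the mature egg in the second meiotic division until fertilisation. In the testis of a young mouse the first wave of germ cells moves through meiosis nearly in step. Successive ages therefore add later germ cell stages to the tissue, first spermatocytes, then round spermatids, then elongating spermatids and sperm. The question asked of these arrays was what separates the late knockout testis from the younger wild-type testis that it most resembles. Age and genotype both differ between the groups and cannot be told apart in this comparison. In whole tissue, fewer cells of a type and less RNA per cell cannot be told apart either.

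Results are given by probe identifier, because levels did not follow the gene names given for the probes. Ribosomal proteins are abundant in all cells, yet of 79 regular probes with such a name both P60 wild-type arrays detected 36 (45.6%). For olfactory receptor names it was 562 of 1154 (48.7%), and for all regular probes 47.8%. Of 16 tested probes with spermatid names, 3 rose in wild type between P15 and the later ages and 7 fell, where 23.3% of all tested probes rose and 40.4% fell. Of 7 with Sertoli or Leydig cell names, 2 rose and 0 fell (limma). In late knockout against P21 wild type, 9 of the 52 tested ribosomal protein probes passed the test (17.3%), 113 of the 784 olfactory receptor probes (14.4%), 1 of the 16 spermatid probes and 0 of the 7 somatic ones, against 13.9% of all tested probes. The probe that carries the name Fbxo43, which is the gene's official symbol, read 9.31 and 9.84 in P21 wild type, 8.95 and 9.27 in P30 knockout, and 9.53 and 9.61 in P60 knockout (log2 signal). Its late knockout arrays overlapped P21 wild type, although both P30 knockout arrays lay below both P21 wild-type arrays. Wild type read 10.33 and 10.45 at P30 and 10.57 and 10.49 at P60, above every late knockout array. At P15 and P21 the knockout arrays overlapped wild type of the same age. Since names are not borne out, the probe checks no genotype label. The labelled tissue could not be checked through named markers for the same reason.

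Signal is given on a log2 scale after quantile normalization without background subtraction. A dark probe therefore reads near 7 and not near 0, and fold changes of probes near that level are understated. A probe counted as detected on an array where its detection p was under 0.05. The late knockout arrays detected between 13454 and 13765 of 25689 regular probes, and the P21 wild-type arrays 14498 and 14508. All 4 late knockout arrays thus lay below both wild-type arrays (difference of means -894, exact permutation test, two-sided, p = 0.0667, the smallest p that the 15 splits of 4 against 2 allow). Median signals before normalization were 154 to 213.7 in the late knockout and 150.5 to 213.7 over all 6 arrays, and the normalization removed such differences.

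Every late knockout array was closer to P21 wild type than to any other wild-type age, which restates how the comparator was chosen and is given as a description. The distance between arrays was the root-mean-square (RMS) log2 difference over 17355 tested probes, which were the regular probes detected on at least 2 of the 16 arrays. Pairs of a late knockout and a P21 wild-type array differed by 0.453 to 0.554, with a mean of 0.509. The mean was 0.852 to P30 wild type, 0.903 to P15 wild type and 0.987 to P60 wild type, and the lowest of those 24 pairs, 0.743, exceeded every P21 pair. The match was far from complete. The P21 wild-type replicates differed from each other by 0.314, the P30 knockout replicates by 0.289, the P60 knockout replicates by 0.249, and P30 from P60 knockout arrays by 0.304 on average. The P21 knockout arrays lay nearer than any wild type on average, at a mean of 0.422, and P21 knockout differed from P21 wild type by 0.481.

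**Figure D1:**
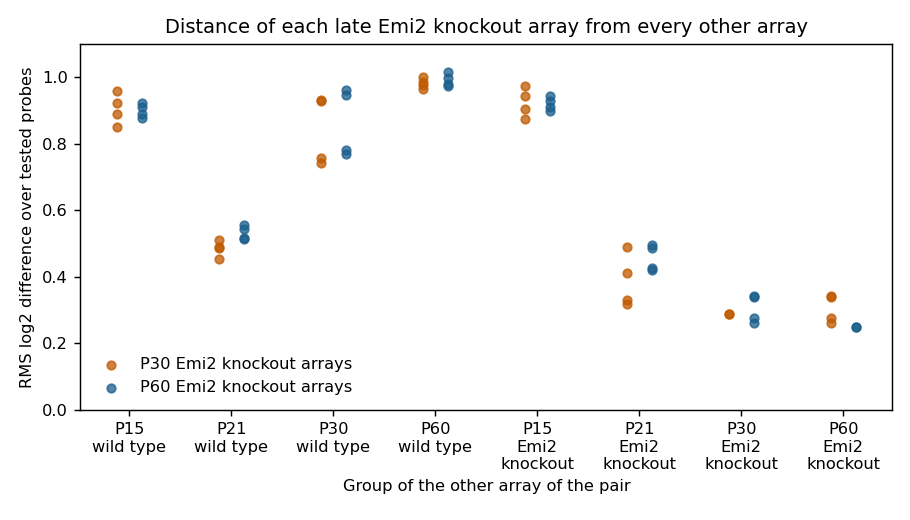
Distance of each P30 (orange) and P60 (blue) Emi2 knockout array from every other array, grouped by the other array's group, as RMS log2 difference over tested probes. Each point is 1 pair of arrays. Among the wild-type groups P21 is lowest, at 0.453 to 0.554, and late knockout arrays among themselves lie at or below 0.341.

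By the number of probes that differed, P21 was the nearest wild type and P30 the next, while P15 and P60 changed places. That P21 was nearest here too restates how the comparator was chosen. A linear model over the 8 groups was fitted with limma, and a probe passed at a Benjamini-Hochberg adjusted p under 0.05. Against P21 wild type, 2409 of 17355 probes passed (13.9%), and 4681 (27%) had an unadjusted p under 0.05. Against P30 wild type 5828 passed (33.6%), against P60 wild type 8194 (47.2%) and against P15 wild type 8529 (49.1%). These comparisons share the late knockout arrays.

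Of the probes that separated late knockout from P21 wild type, 1304 were higher (7.51%) and 1105 lower (6.37%) in the knockout. The lower probes differed by more. Their log2 difference had a median of -0.777, and 375 of 1105 (33.9%, or 2.16% of all tested) were at least 2-fold lower, 120 at least 4-fold and 32 at least 8-fold by the fitted difference. These counts include probes below detection at their measured signal, and 186 of the 1105 were detected on no late knockout array. The higher probes had a median of 0.635, and 203 of 1304 (15.6%, or 1.17% of all tested) were at least 2-fold higher, 28 at least 4-fold and 4 at least 8-fold. The median over all tested probes was 0.0144. In 1093 of the lower and 1234 of the higher probes the 4 late knockout arrays did not overlap the 2 wild-type arrays, as was also so in 16.4% of all tested probes in the lower and 18% in the higher direction. The counts leaned on both P21 wild-type arrays, with 771 higher and 668 lower without P21 wild type replicate 1, and 539 and 773 without replicate 2. Which direction held more probes was therefore not settled.

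**Figure D2:**
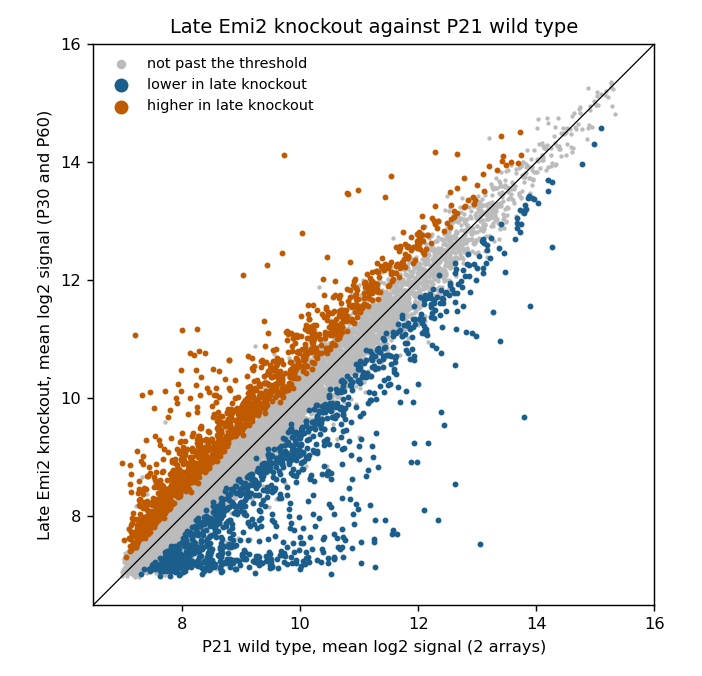
Mean log2 signal of each tested probe in P21 wild type (2 arrays, x axis) and in late Emi2 knockout (mean of the P30 and P60 group means, y axis). Blue marks the 1105 probes lower and orange the 1304 higher in late knockout (limma adjusted p under 0.05), and the line marks equal signal. A band of blue points lies along the bottom, where probes bright in P21 wild type were dark in the knockout.

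The probes with the largest falls were bright in P21 wild type and, for the most part, dim in the late knockout. ILMN_1225334 read 13.35 and 12.76 in P21 wild type, 7.52 and 7.64 in P30 knockout, and 7.41 and 7.52 in P60 knockout. Its log2 difference was -5.53 ± 0.15 (SE; limma adjusted p = 4.89e-09). ILMN_2928453 read 12.64 and 12.02 in P21 wild type against 8.11 and 8.13 at P30 and 7.50 and 7.98 at P60 in knockout. Its difference was -4.40 ± 0.17 (SE; limma adjusted p = 3.08e-08). For both probes the P21 wild-type arrays lay far above all 4 late knockout arrays.

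ILMN_2630078 read 11.70 and 10.85 in P21 wild type and 7.11, 7.15, 7.13 and 7.19 in the late knockout, where it was not well above background on any array. With the dark arrays set no lower than their dimmest detected probe, it was at least 15-fold lower (limma adjusted p = 8.33e-08). ILMN_1218525 was likewise detected on 0 of 4 late knockout arrays and at least 12.6-fold lower (limma adjusted p = 1.02e-07), with 11.40 and 10.65 in P21 wild type. Not every leading probe was dark in the knockout. ILMN_1217767 read 14.06 and 13.53 in P21 wild type and still 9.97, 9.87, 8.93 and 9.97 in the late knockout, a difference of -4.11 ± 0.29 (SE; limma adjusted p = 2.45e-06). ILMN_3152486 read 12.69 and 12.55 in wild type and 8.13, 8.50, 8.93 and 8.60 in the late knockout, with a difference of -4.08 ± 0.14 (SE; limma adjusted p = 1.2e-08).

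The other 4 of the 10 largest falls were ILMN_2638558, ILMN_2747229, ILMN_1245872 and ILMN_2642546. They differed by -4.00 to -3.81 on the log2 scale and were detected on 4 of 4 late knockout arrays. Within the late knockout the SD of these 10 probes over 4 arrays was 0.03 to 0.50. None differed between P30 and P60 knockout by the limma test.

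By the means of arrays outside the comparison, all 10 of these probes rose in wild type from P15 to P30 and P60 (limma). So did 65.7% of the 1105 lower probes and 23.3% of all tested probes. Some were already detected in P15 wild type, as ILMN_1225334 was on 2 of 2 arrays. ILMN_1225334 read 7.46 and 7.51 in P15 wild type, 13.19 and 13.05 at P30 and 12.91 and 13.14 at P60, a log2 rise of 5.59 (limma adjusted p = 9.55e-11). In knockout it read 7.61 and 7.41 at P15 and 7.78 and 7.50 at P21. ILMN_1217767 and ILMN_2747229 of the 10 passed for a rise from P15 to P21 in knockout, with a limma adjusted p of 0.000773 and 0.0129. Of the 1105 lower probes 14.1% rose at that step, and of all tested probes 13.4%. ILMN_3152486, at 7.18 and 7.29 in P21 knockout, passed the detection threshold there on neither array and was detected on all 4 late knockout arrays.

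The largest rises were less uniform. ILMN_1212921 was not well above background in P21 wild type, at 7.20 and 7.21, and read 11.16 and 10.89 in P30 and 11.19 and 11.03 in P60 knockout. It was at least 13.4-fold higher in the late knockout (limma adjusted p = 9.94e-09). It stayed dark in wild type at every age, with 7.21 and 7.18 at P30 and 7.31 and 7.32 at P60, and was already 8.74 and 8.29 in P21 knockout. From P15 to P21 in knockout it rose (limma adjusted p = 2.85e-05).

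ILMN_2836924, ILMN_2740869 and ILMN_2644621 were also even among the late arrays, with an SD of 0.24, 0.30 and 0.09. ILMN_2836924 read 8.88 and 9.18 in P21 wild type and 12.35, 11.94, 12.23 and 11.84 in the late knockout, a difference of 3.06 ± 0.26 (SE; limma adjusted p = 1.3e-05). ILMN_2740869, detected on 1 of 2 P21 wild-type arrays, read 7.30 and 7.35 there and 9.76, 10.18, 10.42 and 9.86 in the late knockout, a difference of 2.73 ± 0.23 (SE; limma adjusted p = 1.16e-05). ILMN_2644621 was bright in both, at 11.22 and 10.74 in P21 wild type and 13.65, 13.51, 13.45 and 13.48 in the late knockout (difference 2.54 ± 0.23, SE; limma adjusted p = 1.69e-05). All 3 also rose from P15 to P21 in knockout, as did 36.1% of the 1304 higher probes and 13.4% of all tested probes. ILMN_2644621 went up there by 4.60 on the log2 scale (limma adjusted p = 4.25e-07), from 7.85 and 7.87 to a mean of 12.46.

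The other 6 of the 10 largest rises varied among the late arrays, with an SD over all 4 of 0.96 or more, up to 1.62. That SD spans both ages. Within an age, the P30 knockout replicates of these 6 had an SD of 1.09 or more, and the P60 replicates 0.86 or less. ILMN_2759669 read 8.61 and 10.86 in P21 wild type, 11.79 and 14.37 in P30 knockout and 15.14 and 15.19 in P60 knockout. Its difference of 4.39 ± 0.79 (SE; limma adjusted p = 0.00325) was the largest rise of all, but its adjusted p was 0.0503 without P21 wild type replicate 1. ILMN_2887131 read 7.68 and 8.32 in P21 wild type, 9.40 and 10.94 in P30 knockout and 11.61 and 12.70 in P60 knockout, with a difference of 3.16 ± 0.44 (SE; limma adjusted p = 0.000582). ILMN_1216950 read 10.39 and 11.24 in wild type, 11.39 and 13.32 at P30 and 14.44 and 14.70 at P60 in knockout, with a difference of 2.65 ± 0.41 (SE; limma adjusted p = 0.00136).

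ILMN_3079413, ILMN_3139952 and ILMN_2732536 had the same shape, with P30 knockout replicate 1 at 7.83, 9.41 and 8.98 and the other late arrays at 10.46 or more. P30 knockout replicate 1 was the lowest late array for 7 of the 10 largest rises, but for 26.6% of all 1304 higher probes and 25.5% of all tested probes. P21 wild type replicate 2 was above replicate 1 in 9 of the 10, a count with no share over all tested probes beside it. For ILMN_1212921, 1 of the 9, these arrays read 7.20 and 7.21, not above background. Without P30 knockout replicate 1 the log2 difference was 3.31 for ILMN_3079413 and 3.10 for ILMN_2732536, against 2.65 and 2.53 with it. Leaving out the lowest late array was bound to raise the difference, so this is no check of those 7 rises. Without P21 wild type replicate 1 the adjusted p was 0.0701 for ILMN_3079413 and 0.105 for ILMN_2732536, and with only the 6 arrays of the comparison fitted it was 0.075 and 0.0589. Of the 10, 7 also rose in wild type from P15 to P30 and P60, as did 30.7% of all 1304 higher probes and 23.3% of all tested probes. What set these replicates apart was not tested.

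**Figure D3:**
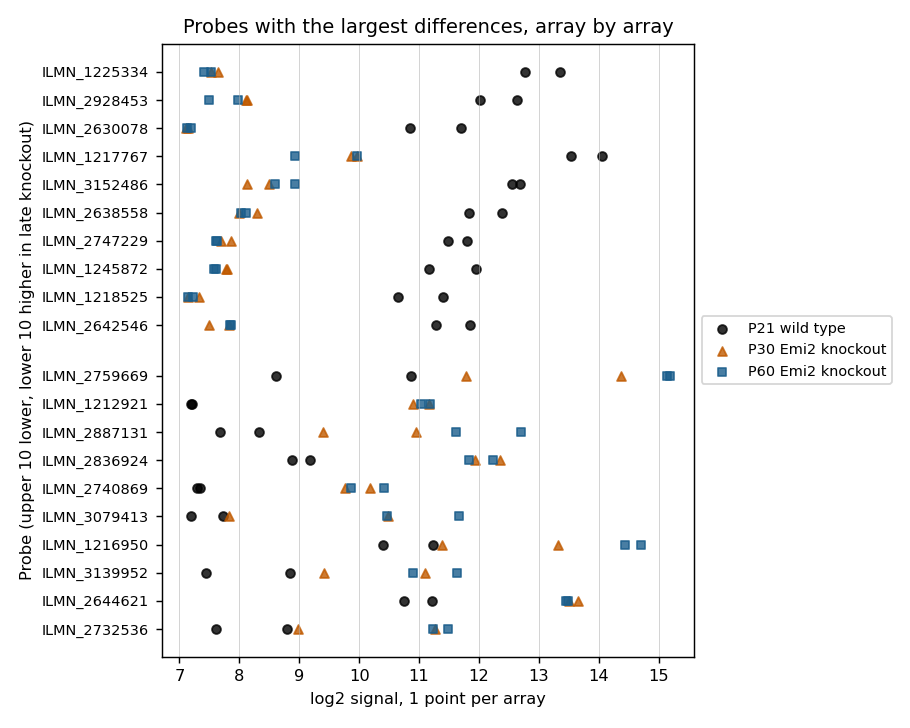
Log2 signal of the 10 probes with the largest falls (upper block) and the 10 with the largest rises (lower block) in late Emi2 knockout against P21 wild type, 1 point per array. In the upper block the late knockout arrays lie close together, far from P21 wild type. Several rises, such as ILMN_2759669, spread widely, with P30 knockout replicates on either side of a gap.

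Detection calls, which do not use the normalized values, were compared as well. In them 465 of 25689 regular probes were detected on both P21 wild-type arrays and on none of the late knockout arrays, and 72 on all late knockout arrays and neither P21 wild-type array. With 4 arrays on one side and 2 on the other, the second class asks for more detections than the first, so the counts are not like for like. Of the 465, 314 were detected on both P30 wild-type arrays and 318 on both at P60, but 66 on both P21 knockout and 120 on both P15 wild-type arrays. Over all 25689 regular probes the same counts were 12732, 12281, 13204 and 13019. Of the 72, 27 were detected on both P21 knockout arrays and 6 on both P30 wild-type arrays. The counts were 881 and 200 without P21 wild type replicate 1, and 857 and 182 without replicate 2, and the second was 113 without P30 Emi2 knockout replicate 2.

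The wild-type course from P15 to P30 and P60 served as an axis that used none of the 6 arrays. Along it 4049 of 17355 probes rose (23.3%) and 7008 fell (40.4%; limma). Over the 4049 risers the array median of log2 signal was 7.66 and 7.70 in P15 wild type and 9.44 to 9.87 in P30 and P60 wild type. In late knockout it was 8.69, 8.55, 8.53 and 8.55, and in P21 wild type 8.99 and 8.66. Over the 7008 fallers it was 8.55, 8.62, 8.63 and 8.61 in the late knockout and 8.49 and 8.66 in P21 wild type. The differences of -0.25 over risers and 0.03 over fallers were smaller than the gap between the P21 wild-type replicates, of which replicate 1 was nearer to the older wild type. The riser difference was -0.08 without replicate 1 and -0.41 without replicate 2, and the faller difference was -0.06 and 0.11.

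Below that average, probes went in opposite directions. Of the 1105 lower probes, 726 (65.7%) were risers in wild type and 261 (23.6%) fallers. Of the 1304 higher probes, 400 (30.7%) were risers and 421 (32.3%) fallers. Among the 4049 risers, 17.9% were thus lower in late knockout than in P21 wild type and 9.88% higher. Among the 7008 fallers, 3.72% were lower and 6.01% higher. The P21 replicates moved these counts. Without replicate 1 the lower probes held 413 risers and 207 fallers and the higher probes 342 risers and 165 fallers. Without replicate 2 it was 642 and 54, and 138 and 215. The 261 lower fallers, 54 without P21 wild type replicate 2, were also 146 without P30 knockout replicate 1 and 133 without P60 knockout replicate 1.

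In the 4 classes so formed, the P21 wild-type and late knockout arrays had been used to choose the probes. The P15, P30 and P60 wild-type arrays had been used to sort them into risers and fallers. The direction of the wild-type course was thus fixed by the choice. Only the P15 and P21 knockout means had no part in it, though their replicates entered the shared estimate of spread. The 726 lower risers stayed near their P15 level in the knockout. Their median log2 signal was 7.45 in P15 wild type, 9.35 at P21, 10.72 at P30 and 11.02 at P60. The knockout medians were 7.465, 7.64, 7.78 and 7.74 at the same ages. Both P21 wild-type arrays detected 726 of the 726, both P60 knockout arrays 63.2% and both P15 wild-type arrays 52.9%. They held 345 of the 375 probes at least 2-fold lower.

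The 261 lower fallers looked different, because their late knockout medians lay near those of wild type of the same age. Their median was 10.04 in P21 wild type and 10.01 in P21 knockout. At P30 it was 9.49 in wild type and 9.46 in knockout, and at P60 9.27 and 9.30. Of these, 16 were at least 2-fold lower than in P21 wild type. The 3 with the largest falls were ILMN_2754355, ILMN_1236161 and ILMN_1217337. ILMN_1236161 read 9.48 and 10.14 in P21 wild type, 8.97 and 8.07 in P30 and 7.42 and 7.59 in P60 knockout (difference -1.80 ± 0.31, SE; limma adjusted p = 0.00248), and 7.44 and 7.20 in P60 wild type. ILMN_1217337 read 8.68 and 9.07 in P21 wild type and 7.88, 7.98, 6.99 and 7.15 in the late knockout, where neither P60 array was above background, so that no exact difference is given (limma adjusted p = 0.00258). ILMN_2754355 read 13.65 and 14.14 in P21 wild type and 10.54, 13.63, 11.27 and 10.77 in the late knockout. Its limma adjusted p of 0.0368 did not hold without either P21 wild-type array (0.102 without replicate 1 and 0.213 without replicate 2) or without either P60 knockout array (0.0646 and 0.0884).

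The 421 higher fallers stood near their P15 level in late knockout. Their median was 9.49 in P15 wild type, 8.82 at P21, 8.66 at P30 and 8.45 at P60. The knockout medians were 9.43, 9.21, 9.52 and 9.60 at the same ages. These differences were small, with 34 of the 421 at least 2-fold higher than in P21 wild type.

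The 400 higher risers had late knockout medians above those of wild type at every age. Their median rose from 8.27 at P15 to 9.31 at P21, 9.77 at P30 and 9.93 at P60 in wild type. The knockout medians were 8.26, 9.49, 10.20 and 10.38 at the same ages. Of these, 109 were at least 2-fold higher than in P21 wild type. The 3 with the largest rises were ILMN_2759669, ILMN_2887131 and ILMN_2836924, given above. ILMN_2836924 read 9.28 and 9.20 in P15, 9.60 and 10.60 in P30 and 10.24 and 10.93 in P60 wild type, each below the 11.84 of the lowest late knockout array.

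**Figure D4:**
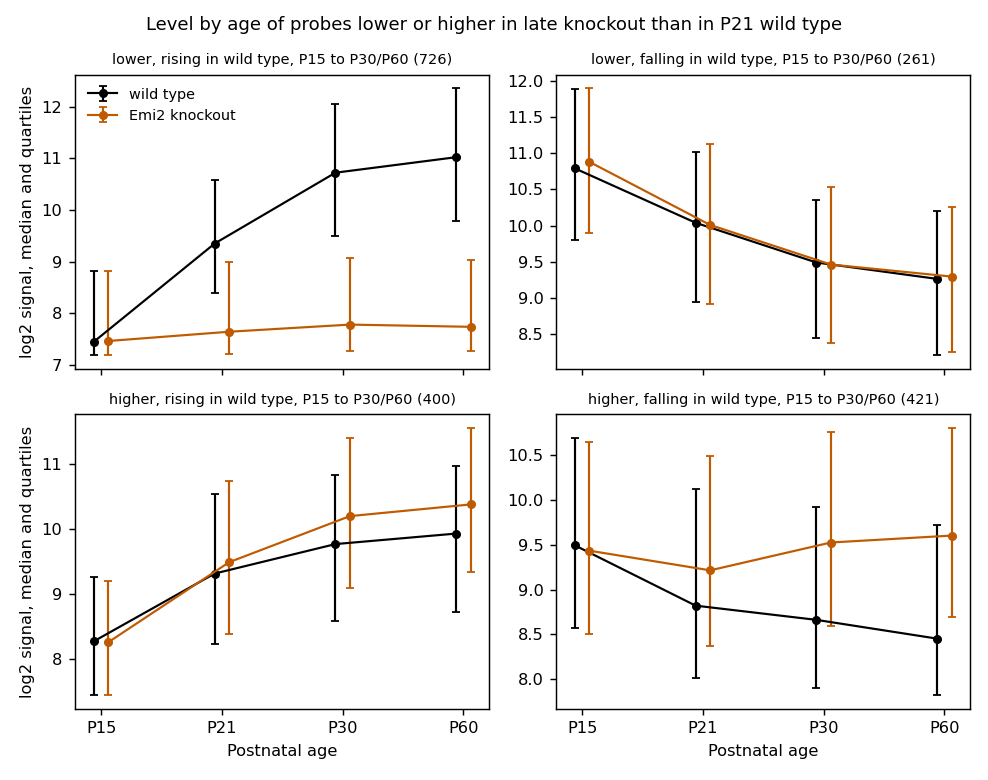
Median log2 signal with quartiles (bars) at each age in wild type (black) and Emi2 knockout (orange). The 4 panels split probes lower or higher in late knockout than in P21 wild type by whether they rose or fell in wild type from P15 to P30 and P60. The P21 wild-type and the P30 and P60 knockout points were used to choose the probes, and the P15, P30 and P60 wild-type points to split them. Only the P15 and P21 knockout means had no part in the choice, though their replicates entered the shared estimate of spread. Lower risers stay near 7.7 in knockout, lower fallers follow wild type, higher risers exceed it and higher fallers stay near 9.5.

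A second landmark, the step from P15 to P21 within the knockout, also shared no array with the comparison. Of the 1304 higher probes, 471 (36.1%) rose at that step and 89 (6.83%) fell, whereas over all tested probes 13.4% rose and 19.3% fell (limma). Of the 1105 lower probes, 156 (14.1%) rose and 260 (23.5%) fell, near the shares over all probes. With either P21 wild-type array left out, the shares of the lower probes moved away from those over all probes. The median change of the 1105 lower probes at that step was -0.0494 on the log2 scale, against -0.0495 over all probes. The 471 were 406 without P21 wild type replicate 1 (52.7% of the higher probes then found) and 170 without replicate 2 (31.5%). The 156 lower probes that rose were 68 without replicate 1. The 260 that fell were 111 without replicate 2, and 170 and 156 without replicate 1 of the P30 and of the P60 knockout.

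The 156 lower probes that rose in knockout and the 471 higher ones were chosen partly on the late knockout and P21 wild-type arrays. How those groups lie to each other was thus fixed by the choice, and so was the rise from P15 to P21 knockout. For the 156 the median log2 signal was 8.715 in P15 knockout and 10.43 in P21 knockout, against 11.24 in P21 wild type. In the late knockout it was 10.50 at P30 and 10.24 at P60. For the 471 the median was 9.84 in P21 knockout and 10.33 and 10.38 in the late knockout, against 9.43 in P21 wild type.

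Taken at each age, 733 probes (4.22%) were higher and 665 (3.83%) lower in P30 knockout than in P21 wild type, 8.06% in all. In P60 knockout 1167 (6.72%) were higher and 1069 (6.16%) lower, 12.9% in all. Both comparisons share the P21 wild-type arrays. The 1304 higher probes had a median log2 difference of 0.608 at P30 and 0.662 at P60, and the 1105 lower probes -0.728 and -0.847. Leaving out P21 wild type replicate 2 took the P30 count from 1398 to 882, and leaving out P30 knockout replicate 1 to 676. At P60 the 2236 probes became 1391 and 1441 when replicate 1 or 2 of P21 wild type was left out, and 1128 and 1325 without replicate 1 or 2 of P60 knockout.

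The direct test of a change between the late ages found few probes. Between P30 and P60 the knockout gained signal in 19 probes (0.109%) and lost it in 5 (0.0288%), 0.138% in all (limma). An unadjusted p under 0.05 was reached by 1312 (7.56%). The count of 24 was 7 without P30 knockout replicate 1 and 39 without replicate 2, 9 without P60 knockout replicate 1 and 13 without replicate 2. With only the 6 arrays fitted it was 3, and with background correction 55.

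ILMN_1213615 showed the largest step, with 8.32 and 10.09 in P30 knockout and 12.63 and 13.63 in P60 knockout (log2 difference 3.92 ± 0.47, SE; limma adjusted p = 0.0136). It read 8.06 and 8.45 in P21 wild type, and in wild type too it was higher at P60 (12.07 and 11.96) than at P30 (8.45 and 9.07). ILMN_2744909 was 8.14 and 8.27 in P30 knockout, level with 8.18 and 8.41 in P21 wild type, and 10.35 and 10.66 in P60 knockout (limma adjusted p = 0.0203), with 8.07 and 7.92 in P60 wild type. ILMN_2636302 went from 7.40 and 7.61 to 9.12 and 10.23 (limma adjusted p = 0.0136), and was not well above background in P21 wild type at 7.24 and 7.30.

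In the other direction ILMN_2604486 read 9.45 and 8.85 in P21 wild type, 9.93 or more on both P30 knockout arrays and 8.52 and 8.08 in P60 knockout, and thus lay above P21 wild type at one age and below it at the other. Its change between the late ages was -1.66 ± 0.27 (SE; limma adjusted p = 0.0486). ILMN_2699390 and ILMN_1223933 fell by 1.0 and 0.92 on the log2 scale (limma adjusted p = 0.0486 each). Adjusted p-values of these 3 falls and of ILMN_2744909 exceeded 0.05 whichever late knockout array was left out. Without P60 knockout replicate 2 that of ILMN_1213615 was 0.0704, and without P30 knockout replicate 1 that of ILMN_2636302 was 0.138. With only the 6 arrays fitted, ILMN_2744909 alone of these 6 probes passed (0.0469).

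**Figure D5:**
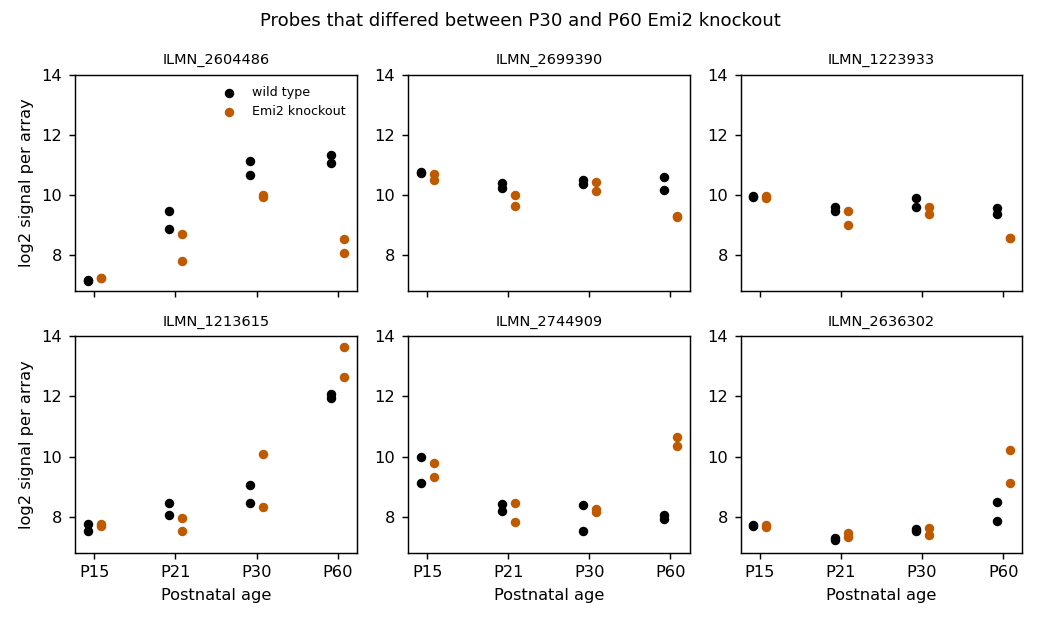
Log2 signal per array at each age in wild type (black) and Emi2 knockout (orange) for the 3 probes with the largest falls (upper row) and the 3 with the largest rises (lower row) from P30 to P60 knockout. ILMN_1213615 reaches 12.63 and 13.63 in P60 knockout, and 12.07 and 11.96 in P60 wild type.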

How the data were processed

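Whole-testis RNA was measured on 16 Illumina bead arrays in 8 groups of 2. A deposited table held each probe's signal intensity, not normalized per the file headers, with a detection p-value beside it per the file headers. In regular rows that column rose with signal and was read as 1 minus the p-value. A second deposited table held log2 values, which quantile normalization of the log2 intensities over all 26511 rows matched to within 0.002759, so the authors had applied no background correction and no centring (column medians 7.393 to 7.394). The submitters' processing notes name limma with no version.

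The log2 table was used as deposited. The 822 rows with control identifiers were left out, which left 25689 regular probes, and 17355 detected at p under 0.05 on at least 2 of 16 arrays were tested. Probes were not merged by gene, although the platform annotation gave 1 symbol for most. The gene names checked were of ribosomal proteins, olfactory receptors, spermatids, Sertoli and Leydig cells, and Fbxo43. The 8 group means were estimated together (limma 3.58.1, R 4.3.3, 8 residual and 3.551 prior degrees of freedom), with Benjamini-Hochberg adjustment over all tested probes and a threshold of 0.05. On simulated data it found 92 of 100 probes shifted by 1 on the log2 scale, with 12 false calls. Of 100 probes shifted by 2 it found 100, again with 12 false calls. Both times the false calls were a larger share of all calls than the 0.05 that the threshold aims at. The late knockout was the mean of its P30 and P60 group means.

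Probes named are the 10 largest falls and 10 largest rises among those past the threshold, detected on every array of the higher side, with groups that do not overlap. By the same rule 3 each way were named for P60 against P30 knockout, for lower probes that fell in wild type, and for higher probes that rose. Arrays give no counting error, and their number limits the precision. The alternatives tried were background correction (normexp, offset 16), 75th percentile scaling, other filters, only 6 arrays, a replicate block, a size minimum, a detection p of 0.01 and leaving out each of the 6 arrays. Members, lists and tests were chosen with earlier results of these data known.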

Additional observations from a re-analysis of the deposited data

Results flagged for a closer look

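Over the 29 probes named, 3 had 1 late knockout array far from the other 3, a gap that chance gives in about 1 of 20 such groups. ILMN_1217767 read 8.93 in P60 Emi2 knockout replicate 1 and 9.87 to 9.97 in the others. ILMN_2642546 read 7.50 in P30 Emi2 knockout replicate 1 and 7.83 to 7.86 in the others. ILMN_2732536 read 8.98 in P30 Emi2 knockout replicate 1 and 11.23 to 11.48 in the others.

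The difference from P21 wild type changed between P30 and P60 knockout in 24 probes by the limma test of that change, and the 3 largest changes each way were named. On the log2 scale the change was 3.92 for ILMN_1213615, 2.30 for ILMN_2744909, 2.17 for ILMN_2636302, -1.66 for ILMN_2604486, -1.0 for ILMN_2699390 and -0.92 for ILMN_1223933.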

How the results depend on the processing

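With a log2 difference of at least 1 also asked for, 203 probes were higher and 375 lower in late knockout than in P21 wild type, 511 differed at P30 and 715 at P60, and 2868, 1428 and 2103 differed from P15, P30 and P60 wild type. Background correction gave an RMS distance to P21 wild type of 0.835, a median difference of 0.03 and 55 probes between P60 and P30 knockout. The median was 0.0866 with 75th percentile scaling, the distance 0.422 with no filter, the P60 to P30 count 3 with only 6 arrays, and the probes gained in detection 114 at a detection p of 0.01. Leaving out each array in turn, the higher probes ranged from 539 to 1224, the lower from 668 to 917, the P30 count from 676 to 1256, the P60 count from 1128 to 2211 and the P60 to P30 count from 7 to 39. Lower risers ranged from 413 to 642, higher fallers from 165 to 367, probes lost in detection from 520 to 881, probes gained from 93 to 200, and the median from 0.00997 to 0.0213. The difference over wild-type fallers turned to -0.06 without P21 wild type replicate 1 and was 0.11 without replicate 2, an alternative added after seeing the data. With 1 array of a group left, that array is assumed to vary like the others. Background correction moved the median difference from P60 wild type over all tested probes from 0.136 to 0.309. The cause of these changes was not tested.

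Background correction kept the direction of all 29 named probes, with 28 still past the threshold, and widened the fall of ILMN_1225334 to -7.23 on the log2 scale. The labels do not say whether replicate numbers pair arrays across groups. The replicate differences of 2 groups correlated over 0.1 across probes in 6 of 28 pairs of groups. The correlations ran from -0.253 to 0.608, with 0.325 for P21 wild type with P30 knockout, and their cause was not tested. With the replicate block 1367 probes were higher and 1101 lower, and 26 of the 29 named probes passed. The 3 that did not were the falls from P30 to P60 knockout of ILMN_2604486, ILMN_2699390 and ILMN_1223933 (limma adjusted p = 0.072, 0.0701 and 0.072).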
